A study of Mus musculus with 6 samples.

Results

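The mouse mitochondrial genome was examined as a group of 37 genes among the 53801 rows of the count table. Of these, 13 carried a name starting with mt- in the table, all of them mRNA genes, and the remaining 24 rows (2 rRNAs and 22 tRNAs) held only an Ensembl identifier and were named through the GENCODE M21 annotation of GRCm38, the genome build the reads were aligned to. RNA came from PDPN+PDGFRα+ stromal cells sorted by FACS from MO5 tumors, which grow from a B16 melanoma line that carries ovalbumin, in mice of the C57Bl/6 background. The 3 DTR libraries (genotype DTR+) came from ADAM12-DTR mice, whose transgene places the diphtheria toxin receptor under Adam12 regulatory sequences, and the 3 Ctrl libraries (genotype DTR-) from age- and sex-matched littermates without it. Both groups received diphtheria toxin (DT), so the comparison asks how the stromal transcriptome differs once ADAM12+ cells are depleted. The labels do not say whether replicates came from separate animals, so p-values measure the spread between these libraries, which may be partly technical.

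The mitochondrial genome is a small circle that is transcribed from both strands into long precursor RNAs. The heavy-strand precursor holds both rRNAs, most tRNAs and all mRNAs except mt-Nd6, which lies on the light strand, and the tRNAs sit between the larger genes, where their excision releases the rRNAs and mRNAs. The mRNAs encode subunits of respiratory complexes I, III, IV and V, which are assembled with subunits encoded in the nucleus, and the rRNAs and tRNAs serve the organelle's own translation. Since these genes are cut from shared precursors, their values in a library are not independent of each other.

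Libraries held between 22339635 and 34271929 counts, and 3 counts correspond to 0.0875 to 0.134 CPM, counts scaled to a common library total. Levels below are in CPM on library sizes scaled by edgeR's TMM factors, which ran from 0.961 to 1.03. Over the 15133 genes with enough counts to be tested, 0 passed the threshold of 0.05 after Benjamini-Hochberg adjustment of edgeR's quasi-likelihood p, a background of 0%. Without adjustment 1199 genes (7.92%) were under 0.05, and DESeq2 called 31 genes (0.152% of those it tested). Adam12 itself stood at 216, 181 and 175 CPM in Ctrl and at 165, 151 and 112 CPM in DTR, with no overlap (log2 fold change -0.42, SE 0.154, edgeR quasi-likelihood adjusted p = 0.602). With single libraries left out, its log2 fold change ran from -0.52 to -0.27.

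The cell type markers were read beside these values. All 8 fibroblast markers were tested, and they summed to 5152 to 13596 CPM in Ctrl and 5558 to 14068 CPM in DTR, with 8 of 8 higher in DTR at a median log2 fold change of 0.38 and 0 of 8 under an unadjusted p of 0.05. The 8 melanoma markers, genes of the pigment cell lineage such as Dct and Tyrp1, summed to 16324 to 18964 CPM in Ctrl and 15235 to 18013 CPM in DTR, with 2 higher and 6 lower at a median of -0.10. An unadjusted p under 0.05 (7.92% of all tested genes) was reached by 1 of 8 melanoma, 0 of 8 macrophage, 2 of 5 endothelial, 1 of 5 T cell, 1 of 3 pericyte and smooth muscle and 0 of 4 erythroid markers tested, both endothelial ones higher in DTR and the melanoma, T cell and pericyte ones lower. In every library the melanoma sum was above the fibroblast sum, so the mitochondrial counts below cannot be assigned to stromal cells alone. The study's sort first gated out hematopoietic and endothelial cells. Macrophage markers summed to 88.7 to 167 CPM in Ctrl and 117 to 125 CPM in DTR, endothelial markers to 27.0 to 34.3 and 33.1 to 100.2 CPM (2.02-fold higher on average in DTR, with overlap), and erythroid markers to 4.77 to 28.8 and 8.72 to 32.4 CPM. The endothelial sum was 47.1, 33.1 and 100.2 CPM in DTR, so that fold rests largely on DTR 3. Of the 5 endothelial markers tested, 4 were higher and 1 lower, Cdh5 at a log2 fold change of -1.53. T cell markers summed to 3.71 to 23.2 CPM in Ctrl and 6.56 to 10.4 CPM in DTR, and pericyte and smooth muscle markers to 12.1 to 30.8 and 7.58 to 12.5 CPM. Of these lists, 0 markers were at 0 in every library. The part of differing cell makeup in the results below was not tested, and fewer cells of a type and less RNA per cell cannot be told apart in these sorted pools.

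Mitochondrial RNA took a larger share of the counts in DTR than in Ctrl. The 37 genes together held 9.29%, 9.84% and 9.90% of counts in Ctrl and 10.7%, 13.8% and 12.5% in DTR. Every DTR library was above every Ctrl library, although DTR 1 exceeded the highest Ctrl value by less than the spread among the DTR libraries. The means were 9.68% ± 0.335 (SD, n = 3) and 12.3% ± 1.57 (SD, n = 3), a difference of 2.64 percentage points or 1.27-fold, with a two-sided exact permutation p = 0.1, the smallest that 3 libraries against 3 allow. After Benjamini-Hochberg adjustment over the 8 shares and ratios compared, this exact permutation p became 0.267.

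The 3 classes of RNA differed greatly in size. The rRNAs made up 92.2% to 93.1% of the mitochondrial counts in a library, the mRNAs 6.82% to 7.75%, and the tRNAs 0.0141% to 0.0518%. The rRNA share of all counts was 8.63%, 9.13% and 9.19% in Ctrl and 9.95%, 12.7% and 11.5% in DTR. The mRNA share was 0.659%, 0.712% and 0.709% in Ctrl and 0.728%, 1.07% and 0.925% in DTR. Neither share overlapped between groups, and each gave an exact permutation p = 0.1. The tRNA share was 0.00482%, 0.00230% and 0.00139% in Ctrl and 0.00421%, 0.00260% and 0.00316% in DTR, where the groups overlapped (exact permutation p = 0.7). The rRNA-to-mRNA ratio was nearly the same in all libraries, at a log2 value of 3.57 to 3.77, and the groups differed by -0.03 with overlap (exact permutation p = 0.7).

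**Figure D1:**
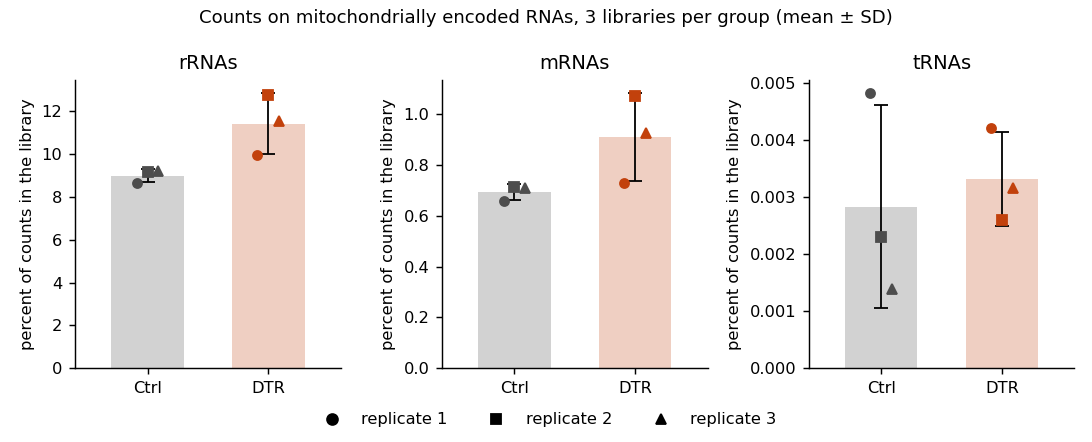
Percent of all counts in each library that fell on mitochondrial rRNAs, mRNAs and tRNAs (linear axes starting at 0, a separate scale per panel). Points are libraries, bars are group means and whiskers are the SD (n = 3); the DTR points lie above the Ctrl points for rRNAs and mRNAs, and the groups overlap for tRNAs.

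By gene, the 20 members with enough counts to be tested were 2 rRNAs, 7 mRNAs and 11 tRNAs. Of these, 16 had a log2 fold change above 0 (49.6% of all tested genes did), and 7 had an unadjusted p under 0.05 with a higher level in DTR (3.81% of all tested genes did). The DTR libraries were all above the Ctrl libraries for 5 of the 20 (6.32% of all tested genes), and for 0 were they all below. Those 7 and those 5 were rRNAs and mRNAs, and 0 of the 20 passed the adjusted threshold in edgeR's quasi-likelihood test. DESeq2 gave 8 members an unadjusted p under 0.05, all higher in DTR (2.93% of the genes it fitted), and 0 passed after adjustment, the lowest adjusted p being 0.186.

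The rRNAs form the RNA core of the mitochondrial ribosome, and they ranked 2 (mt-Rnr2) and 3 (mt-Rnr1) among all genes by mean CPM. The libraries were made with a total RNA kit, and how far mitochondrial rRNA was removed from them is not given by the study. The part of any such removal in the levels and differences was not tested. mt-Rnr1 (ENSMUSG00000064337), the RNA of the small subunit, lies at chrM:70-1024 on the plus strand of GRCm38. Its level was 30541, 30724 and 30936 CPM in Ctrl and 35266, 46304 and 42246 CPM in DTR. The Ctrl libraries lay within a narrow range and all DTR libraries were above it, with means of 30734 ± 198 and 41272 ± 5583 CPM (SD, n = 3). The log2 fold change was 0.43 (SE 0.134, 95% interval 0.12 to 0.74, edgeR quasi-likelihood adjusted p = 0.602).

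mt-Rnr2 (ENSMUSG00000064339), the RNA of the large subunit, lies at chrM:1094-2675 on the same strand, and mt-Tv fills the space between the rRNAs. Its level was 57824, 64279 and 58043 CPM in Ctrl and 63800, 79745 and 71283 CPM in DTR. DTR 1 was below Ctrl 2, so the groups overlapped, and the log2 fold change of 0.25 (SE 0.136) came with an edgeR quasi-likelihood adjusted p = 0.655 and was 0.17 without DTR 2. The ratio of mt-Rnr2 to mt-Rnr1 counts, looked at after both values had been seen, was 1.89, 2.09 and 1.88 in Ctrl and 1.81, 1.72 and 1.69 in DTR. It was lower in every DTR library than in every Ctrl library (exact permutation p = 0.1, the smallest possible).

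Among the 13 mRNAs, 7 were abundant and 6 were nearly without counts. The 6 are the consecutive genes mt-Co2, mt-Atp8, mt-Atp6, mt-Co3, mt-Nd3 and mt-Nd4l, which encode subunits of complexes IV, V and I. mt-Co2 and mt-Atp8 had 0 counts in every library, and a count of 0 allows up to 0.134 CPM in the shallowest. mt-Atp6 had 4 counts in DTR 2 and 0 in the other libraries, and mt-Nd4l had 2 counts in DTR 2 alone. mt-Co3 had 1 count in DTR 1 alone, and mt-Nd3 had 1 count in each of Ctrl 1 and Ctrl 3. No comparison between groups was possible for these genes, and complex V had no mitochondrially encoded subunit that could be tested.

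This gap followed a stretch of the genome that has a near-identical nuclear copy. On the minus strand of chromosome 1, chr1:24611535-24616197 of GRCm38 holds 7 annotated pseudogenes, in the same order as their mitochondrial counterparts: Gm29216 (a copy of the end of mt-Co1), Gm28661 (mt-Co2), Gm10925 (mt-Atp6), Gm28437 (mt-Co3), Gm28438 (mt-Nd3), Gm10222 (mt-Nd4l) and Gm28439 (the start of mt-Nd4). They match chrM:6390-11042, a stretch of 4653 bases. Over the aligned bases 6 of the 7 were 100% identical to the mitochondrial gene, and Gm29216 had 1 mismatch in 483 bases. mt-Atp8 has no annotated copy of its own, but between the aligned parts of mt-Co2 and mt-Atp6 lie 233 bases in the mitochondrial genome and 233 bases on chromosome 1, counted from base 681 of mt-Co2, where its alignment ends. The genome sequence of that interval was not analysed here.

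The 11 members that lie wholly inside the stretch (the 6 mRNAs with mt-Ts1, mt-Td, mt-Tk, mt-Tg and mt-Tr) held 14 counts over all 6 libraries, 6 of them were at 0 throughout, and the largest single value was 4. The 7 nuclear copies held 94 counts in all 6 libraries. All 20 tested members lay outside the stretch or reached beyond it. How reads with several alignments were handled is not given in the sources used here, and the part of the sequence identity in the low counts was not tested.

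The edges of the stretch fall inside genes that did have counts. The lines below show 120 bases of each around its edge, and capitals mark the bases inside the aligned copy that are identical to it. The first is chrM:6330-6449, plus strand, inside the coding exon of mt-Co1, where the copy begins, and the next is chrM:10983-11102, plus strand, inside the coding exon of mt-Nd4, where the copy ends.
mt-Co1: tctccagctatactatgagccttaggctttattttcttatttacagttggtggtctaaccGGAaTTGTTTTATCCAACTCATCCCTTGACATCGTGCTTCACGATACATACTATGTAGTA
mt-Nd4: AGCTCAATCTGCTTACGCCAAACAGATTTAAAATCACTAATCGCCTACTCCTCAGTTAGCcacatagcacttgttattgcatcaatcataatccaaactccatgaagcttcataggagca
The single lower-case letter within the capitals of mt-Co1 is the mismatch. For mt-Atp8, chrM:7766-7969, plus strand, the whole gene is shown because it had 0 counts in every library, with capitals for the 43 bases at its end that also belong to mt-Atp6. All sequences here are GENCODE M21 transcript sequences on GRCm38.
mt-Atp8: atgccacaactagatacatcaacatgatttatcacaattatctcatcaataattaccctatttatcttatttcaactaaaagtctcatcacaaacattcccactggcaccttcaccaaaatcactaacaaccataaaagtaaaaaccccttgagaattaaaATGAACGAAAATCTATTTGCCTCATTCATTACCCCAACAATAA

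The share of each gene's 50-base words that also occur in an annotated nuclear transcript was computed for each rRNA and mRNA. It was 100% for mt-Co2, 99.9% for mt-Co3, 99.5% for mt-Atp6, 98.8% for mt-Nd4l and 98.0% for mt-Nd3. The genes that cross an edge lay between, with 62.2% for mt-Nd4 and 51.1% for mt-Co1. Of the 1496 words of mt-Co1, 765 were shared, and 430 of these with Gm29216 in the stretch on chromosome 1. Gm13340 on chromosome 2 shared 411 words with mt-Co1, so its percentage does not measure that stretch alone. It was 8.19% for mt-Nd2, 7.61% for mt-Nd5 and 1.04% for mt-Rnr2, and 0% for mt-Rnr1, mt-Nd1, mt-Nd6 and mt-Cytb. mt-Atp8 was at 0% as well, but only annotated transcripts were searched and it has no annotated copy. Its 0% therefore does not show whether chromosome 1 holds its sequence. Other nuclear copies, with 88.5% to 97.6% identity, held few counts: Gm13340, a whole-length copy of mt-Co1 on chromosome 2, had 13 to 41 per library. Next to it, Gm13341, a whole-length copy of mt-Co2 with 95.9% identity, had 15, 14 and 20 counts in Ctrl and 45, 55 and 17 in DTR, while mt-Co2 itself had 0 in every library.

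**Figure D2:**
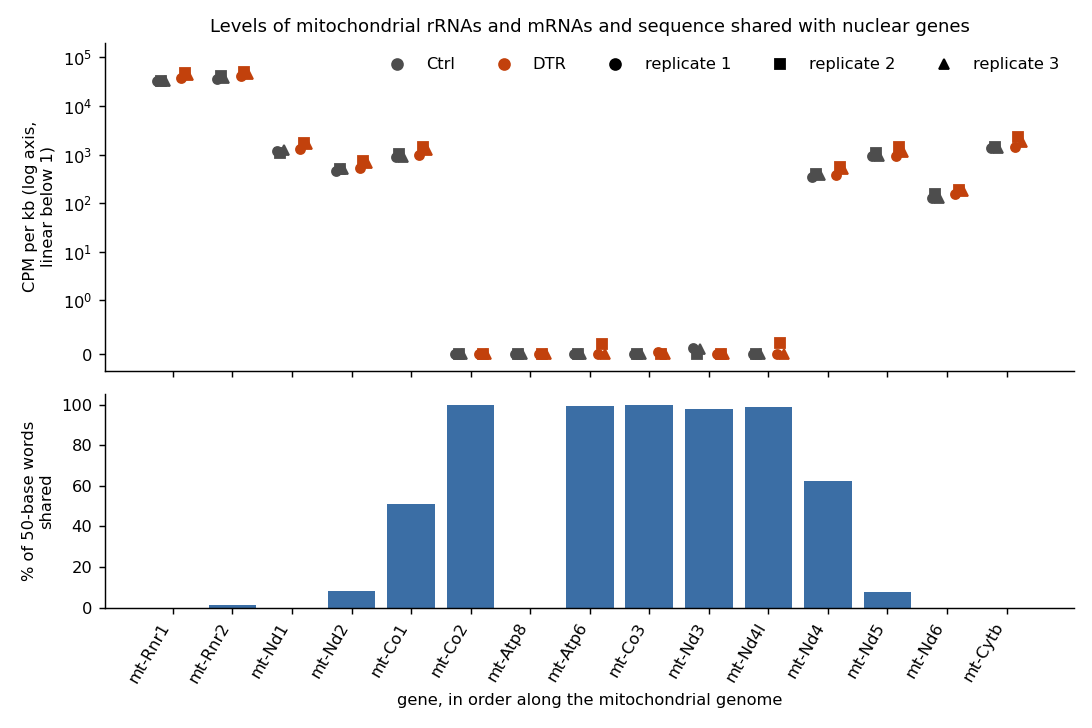
Top, level per length of each mitochondrial rRNA and mRNA in each library in CPM per kilobase (logarithmic axis, linear below 1; grey Ctrl, orange DTR, a symbol per replicate). Bottom, percent of the gene's 50-base words found in annotated nuclear transcripts. The 6 genes at or near 0 CPM lie side by side. All but mt-Atp8, which has no annotated nuclear copy, share 98.0% to 100% of their words.

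Complex I takes electrons from NADH, and mt-Nd1, mt-Nd2, mt-Nd4, mt-Nd5 and mt-Nd6 encode membrane subunits of it. All 5 had higher mean levels in DTR (log2 fold change above 0 in 49.6% of all tested genes). Of the 5, 4 had an unadjusted p under 0.05 (3.81% of all tested genes were under it and higher in DTR), and for 3 the DTR libraries were above all Ctrl libraries (6.32% of all tested genes). mt-Nd1 was at 1135, 1052 and 1183 CPM in Ctrl and 1248, 1681 and 1596 CPM in DTR. The groups did not overlap, and this was the highest log2 fold change of the tested mRNAs, at 0.43 (SE 0.127, 95% interval 0.13 to 0.72, edgeR quasi-likelihood adjusted p = 0.602). mt-Nd2 was at 481, 514 and 515 CPM in Ctrl and 539, 749 and 690 CPM in DTR. It too showed no overlap, with a log2 fold change of 0.39 (SE 0.127, edgeR quasi-likelihood adjusted p = 0.602).

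mt-Nd4 was at 480, 535 and 510 CPM in Ctrl and 517, 761 and 692 CPM in DTR, where DTR 1 fell among the Ctrl values. Its log2 fold change was 0.37 (SE 0.143, edgeR quasi-likelihood adjusted p = 0.604). mt-Nd5 was at 1664, 1982 and 1687 CPM in Ctrl and 1711, 2560 and 2104 CPM in DTR. It had the lowest log2 fold change of the tested mRNAs, 0.26 (SE 0.155, 95% interval -0.10 to 0.62, edgeR quasi-likelihood adjusted p = 0.678), and the groups overlapped. The value was 0.10 without DTR 2 and 0.40 without DTR 1.

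mt-Nd6 is the mRNA of the light strand, at chrM:13552-14070, and it was the least abundant of the 7. Its level was 66.2, 78.9 and 66.2 CPM in Ctrl and 79.2, 96.0 and 91.6 CPM in DTR. DTR 1 was only just above Ctrl 2, without overlap, and the log2 fold change was 0.34 (SE 0.114, 95% interval 0.07 to 0.60, edgeR quasi-likelihood adjusted p = 0.602). To compare the strands within a library, mt-Nd6 counts were set against those of all heavy-strand mRNAs. This log2 ratio was -6.66, -6.54 and -6.68 in Ctrl and -6.50, -6.77 and -6.62 in DTR. DTR libraries held both the highest and the lowest value, and the means differed by -0.01 (exact permutation p = 1).

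Complex III passes electrons from ubiquinol to cytochrome c, and mt-Cytb encodes its cytochrome b, the only mitochondrially encoded subunit. mt-Cytb was at 1541, 1655 and 1558 CPM in Ctrl and 1665, 2571 and 2055 CPM in DTR. The groups did not overlap, but DTR 1 was above the highest Ctrl library by a small margin, and the log2 fold change was 0.40 (SE 0.154, 95% interval 0.05 to 0.76, edgeR quasi-likelihood adjusted p = 0.602). It was 0.23 without DTR 2 and 0.56 without DTR 1. mt-Cytb lies near the far end of the heavy-strand precursor and mt-Nd1 just after the rRNAs. The log2 ratio of mt-Cytb to mt-Nd1 counts was 0.44, 0.65 and 0.40 in Ctrl and 0.42, 0.61 and 0.36 in DTR. The groups overlapped, with a difference of -0.03 (exact permutation p = 0.6).

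Complex IV reduces oxygen to water, and mt-Co1 encodes its catalytic subunit. mt-Co1 was at 1376, 1588 and 1348 CPM in Ctrl and 1494, 2176 and 1873 CPM in DTR. DTR 1 lay below Ctrl 2, and the log2 fold change was 0.36 (SE 0.147, 95% interval 0.02 to 0.70, edgeR quasi-likelihood adjusted p = 0.604). It was 0.23 without DTR 2 and 0.51 without DTR 1. The other complex IV genes of the mitochondrial genome, mt-Co2 and mt-Co3, are among those nearly without counts.

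The difference between groups was uneven among the DTR libraries. All 9 tested rRNAs and mRNAs were highest in DTR 2, and all 9 had their lowest DTR level in DTR 1. Over the 7 mRNAs the median log2 fold change was 0.37, and over the rRNAs 0.34, beside -0.0029 over all tested genes. Summed over the mRNAs, the TMM-scaled level was 7253 CPM in DTR 1 and 7406 CPM in Ctrl 2, so the mRNA sum overlapped on this scale although the share of counts did not.

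**Figure D3:**
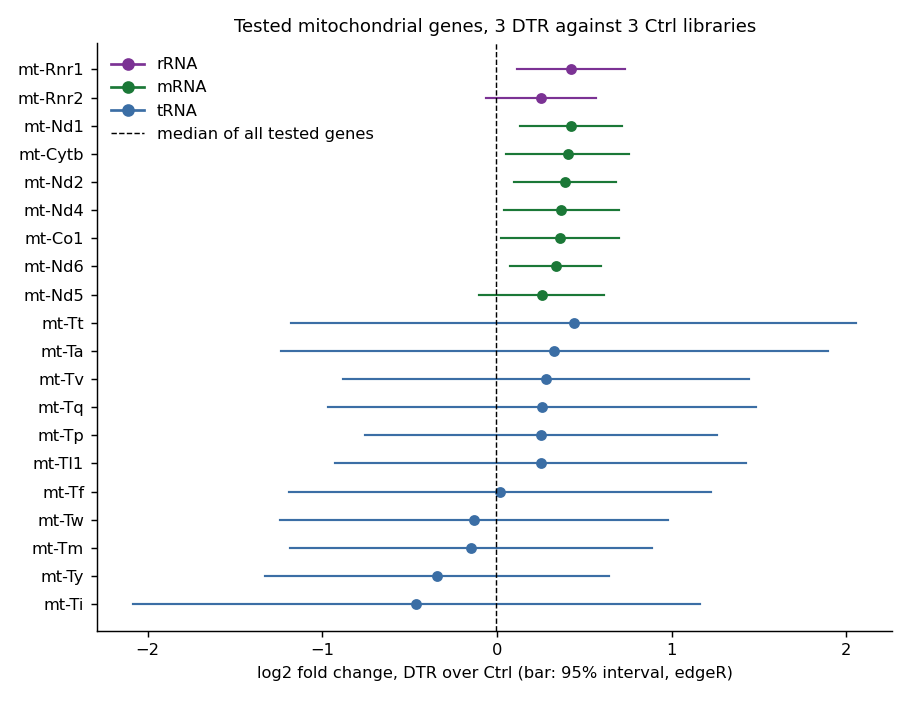
Log2 fold change, DTR over Ctrl, of the 20 tested mitochondrial genes (horizontal axis), with the 95% interval from edgeR's quasi-likelihood fit as a bar and the median of all tested genes as a dashed line. All rRNA and mRNA points lie to the right of the line between 0.25 and 0.43, and the tRNA intervals are far wider and all include 0.

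Per kilobase of transcript, mt-Cytb was the most abundant of the 7 mRNAs, at a mean level of 1609 CPM per kilobase over the 6 libraries, followed by mt-Nd1 at 1375. mt-Nd5 and mt-Co1 came next at 1070 and 1063 CPM per kilobase and traded places between the groups, mt-Nd5 being higher in each Ctrl library and mt-Co1 in each DTR library. mt-Nd2 followed at 560, mt-Nd4 at 423 and mt-Nd6 at 154 CPM per kilobase. The other positions of this order were the same in all 6 libraries. Divided by the words that no nuclear transcript shares instead, mt-Co1 stood at 2247 and mt-Nd4 at 1160 CPM per kilobase, so the places of these genes depend on how shared sequence is treated. The rRNAs were at 37699 (mt-Rnr1) and 41611 (mt-Rnr2) CPM per kilobase, far above any mRNA.

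The 22 tRNA genes held between 384 and 1443 counts in a library. Such short RNAs are poorly captured by random-primed total RNA libraries, and counts in tRNA genes can also come from precursors or from reads that reach in from a neighbouring gene, which these tables do not separate. Of the 22, 11 had enough counts to be tested, 6 had at most 7 counts in any library, and 5 (mt-Ts1, mt-Td, mt-Tk, mt-Tg and mt-Th) were at 0 throughout. Of those at 0, mt-Th, next to the end of mt-Nd4, lies outside the stretch with the nuclear copy.

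The tRNAs with the highest mean CPM were mt-Tv (tRNA for valine), mt-Tl1 (a tRNA for leucine) and mt-Tp (tRNA for proline), and they are shown since most of the class's counts fell on them. Capitals mark the anticodon. mt-Tv is at chrM:1025-1093 and mt-Tl1 at chrM:2676-2750, both on the plus strand, and mt-Tp is at chrM:15356-15422 on the minus strand.
mt-Tv: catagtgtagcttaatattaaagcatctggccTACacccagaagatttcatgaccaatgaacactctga
mt-Tl1: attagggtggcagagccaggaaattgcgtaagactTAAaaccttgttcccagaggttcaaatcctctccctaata
mt-Tp: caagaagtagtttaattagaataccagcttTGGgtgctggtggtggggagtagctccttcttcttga
mt-Tv touches both rRNA genes and mt-Tl1 lies between mt-Rnr2 and mt-Nd1, so each adjoins highly abundant RNAs.

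mt-Tv had 586, 255 and 142 counts in Ctrl and 743, 357 and 339 counts in DTR, between 37.0% and 51.5% of the tRNA counts of a library. On the scaled level this was 23.9, 10.7 and 4.99 CPM in Ctrl and 21.6, 11.5 and 14.9 CPM in DTR. The Ctrl libraries spanned the whole DTR range, and the log2 fold change of 0.28 had an SE of 0.503 (95% interval -0.88 to 1.44, edgeR quasi-likelihood adjusted p = 0.897). mt-Tl1 had 156, 74 and 38 counts in Ctrl and 178, 113 and 91 in DTR (log2 fold change 0.25, SE 0.510). mt-Tp had 113, 38 and 56 counts in Ctrl and 131, 88 and 70 in DTR (log2 fold change 0.25, SE 0.437). Both overlapped between groups.

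Over the 11 tested tRNAs, 7 had a log2 fold change above 0 and 4 below, with a median of 0.25, and 0 were under an unadjusted p of 0.05. The lowest were mt-Ti (isoleucine), at -0.46 with a 95% interval of -2.08 to 1.16, and mt-Ty (tyrosine), at -0.34 with -1.33 to 0.64. The highest were mt-Tt (threonine), at 0.44 with -1.18 to 2.06, and mt-Ta (alanine), at 0.33 with -1.24 to 1.89. mt-Tt was at 0.03 without Ctrl 3 and at 1.66 without Ctrl 1. These intervals are wide enough to hold differences of the size seen for the mRNAs in either direction. The tRNA-to-mRNA log2 ratio was -7.10, -8.27 and -8.99 in Ctrl and -7.43, -8.69 and -8.19 in DTR, with a difference of 0.02 (exact permutation p = 1).

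The tRNAs varied with the library more than with the group. Ctrl 1 held the highest Ctrl level for 10 of the 11 and DTR 1 the highest DTR level for 10 of the 11, whereas for rRNAs and mRNAs DTR 1 was the lowest DTR library. Nuclear genes of short RNAs (snRNA, snoRNA and scaRNA, 323 genes with counts, a measure chosen after these values were seen) took 0.0784%, 0.0755% and 0.0424% of counts in Ctrl and 0.0797%, 0.0485% and 0.0516% in DTR. Their share was thus also highest in DTR 1 and Ctrl 1 and lowest in Ctrl 3, and its part in the tRNA values was not tested. Ctrl 2 departed from this likeness. Its short RNA share of 0.0755% was near that of Ctrl 1, but its summed tRNA level was 23.9 CPM against 49.3 CPM in Ctrl 1. The summed tRNA level was 49.3, 23.9 and 13.5 CPM in Ctrl and 41.9, 25.7 and 31.1 CPM in DTR, and the fibroblast marker sum was 13596, 5219 and 5152 CPM in Ctrl and 10827, 5558 and 14068 CPM in DTR. Ctrl 1, DTR 1 and DTR 3 were thus the upper 3 libraries on both measures, and the part of the fibroblast content in the tRNA values was not tested.

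**Figure D4:**
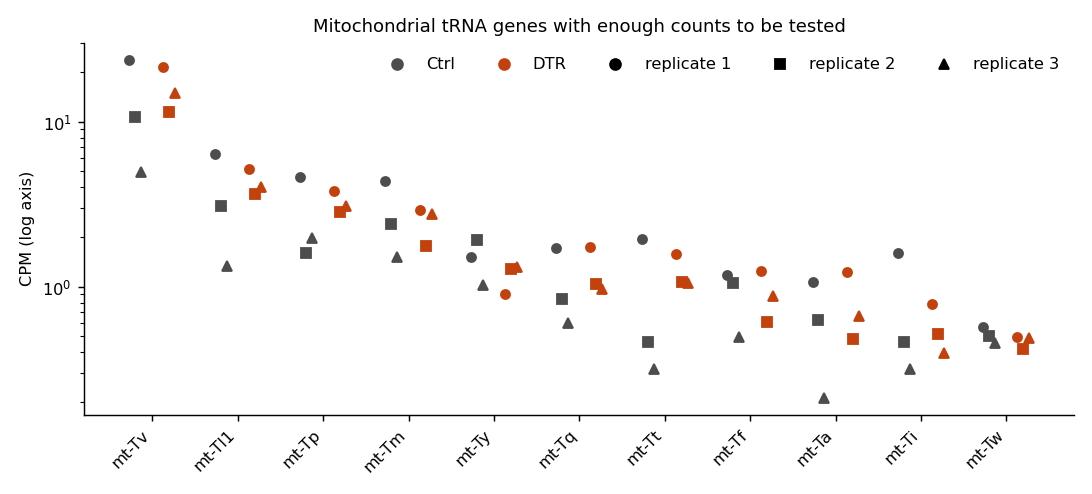
Level of each of the 11 tested mitochondrial tRNA genes in each library in CPM (logarithmic axis; grey Ctrl, orange DTR, a symbol per replicate). The groups overlap for every gene, and replicate 1 is the highest library of its group for 10 of the 11 genes in each group.

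The nuclear genes that work with the mitochondrial genome had median log2 fold changes between -0.15 and -0.01 in the lists below. Of the nuclear complex I subunits, 36 of 37 were tested, 14 with a log2 fold change above 0 and 22 below, at a median of -0.05. The lowest was Ndufa2, at 69.5, 71.2 and 67.8 CPM in Ctrl and 60.1, 58.3 and 57.0 CPM in DTR. Its groups did not overlap (8.18% of all tested genes were lower without overlap), with a log2 fold change of -0.25 (SE 0.0823, edgeR quasi-likelihood adjusted p = 0.602). The highest was Ndufc1, at 42.4, 34.9 and 49.9 CPM in Ctrl and 43.9, 60.8 and 51.6 CPM in DTR, with overlap and a log2 fold change of 0.30 (0.17 to 0.43 with single libraries left out).

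Of the 9 nuclear complex III subunits, 4 were above and 5 below 0 at a median of -0.04, from Uqcrh at -0.17 to Uqcrq at 0.07. Of 10 nuclear complex IV subunits 9 were tested, 4 above and 5 below 0 at a median of -0.01, from Cox8a at -0.20 to Cox7c at 0.21. For complex V, whose mitochondrial subunits could not be measured, 15 nuclear subunits were tested, 5 above and 10 below 0 at a median of -0.07, from Atp5k at -0.29 to Atp5l at 0.19. With single libraries left out, Uqcrh ran from -0.23 to -0.06, Cox8a from -0.26 to -0.10, Cox7c from 0.08 to 0.31 and Atp5l from 0.04 to 0.29. Among the 69 tested nuclear subunits of these 4 complexes, 3 (4.35%) were under an unadjusted p of 0.05, beside 7.92% of all tested genes, and 0 passed after adjustment (edgeR quasi-likelihood).

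Mitochondrial ribosomal proteins, which assemble with mt-Rnr1 and mt-Rnr2, were tested for 75 of 78 genes. Of these, 19 were above and 56 below 0 at a median log2 fold change of -0.06, and without overlap 7 were lower and 1 was higher in DTR (8.18% and 6.32% of all tested genes). The lowest was Mrpl14 at -0.29 and the highest Mrps18c at 0.31, both with overlapping groups, and with single libraries left out they ran from -0.44 to -0.12 and from 0.14 to 0.58. Among genes of mitochondrial RNA processing and decay, 18 of 19 were in the table and 17 were tested, 7 above and 10 below 0 at a median of -0.03, from Fastk at -0.17 (-0.24 to -0.09 with single libraries left out) to Fastkd3 at 0.36. Of both lists, 0 genes passed the adjusted threshold in edgeR's quasi-likelihood test.

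Of 15 genes of mtDNA replication and transcription 14 were tested, 6 above and 8 below 0 at a median of -0.15. Without overlap, 2 were higher and 3 lower in DTR (6.32% and 8.18% of all tested genes). An unadjusted p under 0.05 was reached by 2 (7.92% of all tested genes), 1 of them higher in DTR. Polg2, the accessory subunit of the mitochondrial DNA polymerase, was at 5.79, 4.06 and 7.16 CPM in Ctrl and 9.56, 12.4 and 15.2 CPM in DTR. All DTR libraries were above all Ctrl libraries, as for 6.32% of all tested genes. The log2 fold change was 1.12 (SE 0.264, edgeR quasi-likelihood adjusted p = 0.602). By DESeq2 its adjusted p was 0.0488, so the call depended on the tool. Mterf1a, of the mitochondrial termination factor family, was the lowest at -0.44, with 10 to 31 counts per library and overlapping groups, and it ran from -1.05 (without DTR 3) to -0.05 (without DTR 1) when single libraries were left out.

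**Figure D5:**
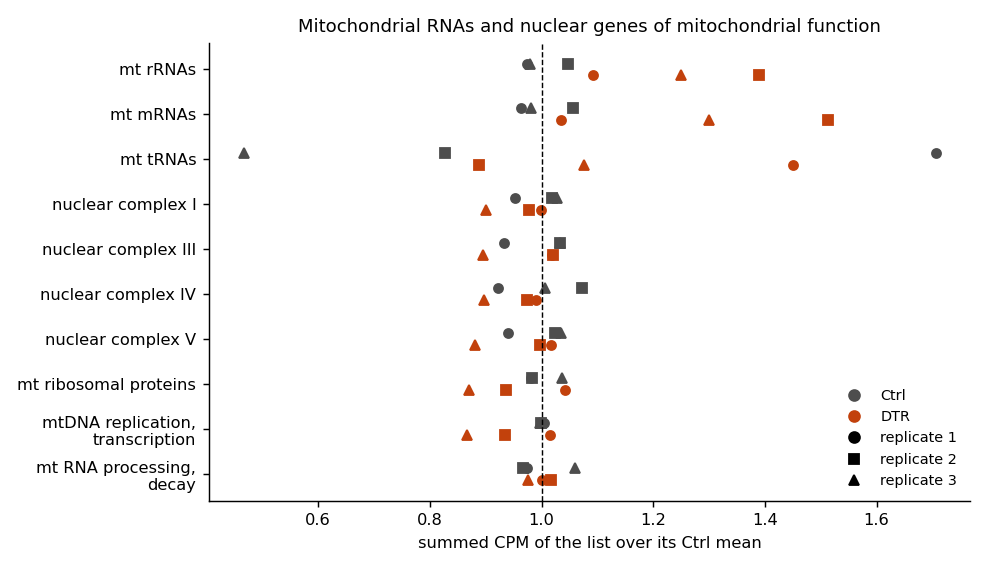
Summed CPM of each gene list in each library divided by the list's mean over the Ctrl libraries (linear axis; grey Ctrl, orange DTR, a symbol per replicate; dashed line at 1). Mitochondrial rRNAs and mRNAs of DTR 2 and DTR 3 lie to the right of all Ctrl points, the tRNAs are widely spread, and the nuclear lists stay near the line with DTR 3 at or below it.

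A list of 6 long non-coding RNAs, drawn up as nuclear-retained RNA, was read in the same libraries. It fits that name for Malat1 and Neat1 but not for Gas5, a snoRNA host gene whose spliced transcript is also found in the cytoplasm. In this list each log2 fold change was above 0 (49.6% of all tested genes), at a median of 0.47, with 2 at an unadjusted p under 0.05 (3.81% of all tested genes were under it and higher in DTR) and 0 past the adjusted threshold in edgeR's quasi-likelihood test. They ran from Gas5 at 0.03 to Snhg11 at 2.31, which had 1 to 76 counts per library and moved between 0.87 and 3.44 when single libraries were left out. Malat1 and Neat1, long RNAs of nuclear speckles and paraspeckles, are shown as well, chosen after their values were seen. Malat1 held 0.235%, 0.232% and 0.233% of counts in Ctrl and 0.235%, 0.327% and 0.448% in DTR. It was thus higher in DTR 2 and DTR 3, the libraries with the largest mitochondrial shares, and in DTR 1 was near the Ctrl values (exact permutation p = 0.1). The likeness was partial. Malat1 was highest in DTR 3, and the mitochondrial share in DTR 2 (13.8%, against 12.5% in DTR 3). In DTR 1 the mitochondrial share, 10.7%, was above every Ctrl library. Neat1 held 0.00588%, 0.00420% and 0.00390% in Ctrl and 0.00401%, 0.00465% and 0.00919% in DTR, with overlap (exact permutation p = 0.6), and the summed CPM of the list overlapped too (exact permutation p = 0.3). The part of these RNAs in the mitochondrial values was not tested.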

How the data were processed

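Libraries of PDPN+PDGFRα+ cells were prepared with a stranded total RNA kit and sequenced by the authors. The authors trimmed adapters with cutadapt 3.4, aligned reads to GRCm38 with STAR 2.7.3a and counted them per gene and strand with featureCounts 2.0.1, and the deposited raw counts were used here. Their methods and data availability text name different Ensembl releases, and how reads with several alignments were treated is not given in the sources used here. The authors' deposited score per library, a count divided by their DESeq2 size factor and rounded, was not used, nor were their dispersions, Cook's distances, fold changes and p-values.

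Genes were kept by filterByExpr (minimum count 10, minimum total 15), scaled by TMM and tested on the whole table with edgeR 4.0.16 (glmQLFit and glmQLFTest, two-sided, Benjamini-Hochberg, threshold 0.05) in R 4.3.3, 3 DTR against 3 Ctrl libraries. Of 53801 genes, 26774 had a count and 15133 were tested. Shares and ratios were compared by two-sided exact permutation tests in SciPy 1.17.1. Nuclear copies were found as annotated nuclear transcripts that share 50-base words with a mitochondrial gene. Anticodons were located as 3 letters with C or T before and A or G after, near the middle of the gene. Floors and intervals of counts cover counting error only.

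The members and lists were chosen with earlier results of these data known. Named were all rRNAs and mRNAs, the 3 tRNAs with the highest mean CPM, the 2 lowest and 2 highest tRNAs by log2 fold change, any member past the threshold, and the lowest and highest tested gene of each nuclear list. Alternatives were other scalings, other filters, robust moderation, a replicate block, DESeq2 1.42.0 and leaving out each library, 15 fits of all genes in all. The steps were tested on simulated data.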

Additional observations from a re-analysis of the deposited data

How the results depend on the processing

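With 3 libraries a group, an exact test cannot go below p = 0.1, and the mRNAs inside the copied stretch could not be compared. Every log2 fold change of the 9 tested rRNAs and mRNAs stayed above 0, in 126 of 126 values over the alternatives, and 0 of them passed the threshold (adjusted p 0.186 to 0.908, edgeR or DESeq2). The count of differentially expressed genes was 0 in edgeR and 31 with DESeq2, and 0 to 2 with a library left out, the 2 arising without Ctrl replicate 1. Among the nuclear genes named, Polg2 passed the threshold with DESeq2 alone (log2 fold change 1.13). The difference in the mt-Nd6 to heavy-strand mRNA log2 ratio was -0.00591 by means and 0.0369 by medians. The causes were not tested.

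Leaving out single libraries turned the direction of results that did not differ between groups. The tRNA median ran from -0.14 (without Ctrl replicate 3) to 0.80 (without Ctrl replicate 1), and the difference in tRNA share from -0.000236 to 0.00148 percentage points. Differences in log2 ratios ran from -0.42 to 0.53 (tRNA to mRNA), -0.0896 to 0.00996 (rRNA to mRNA), -0.0710 to 0.0649 (mt-Nd6 to heavy-strand mRNA) and -0.11 to 0.0453 (mt-Cytb to mt-Nd1). Log2 fold changes ran from -0.28 to 0.26 for mt-Tf, -0.11 to 1.04 for mt-Tv, -0.14 to 0.95 for mt-Tl1, -0.84 to 0.55 for mt-Ti, -0.0517 to 0.80 for mt-Tq, -0.44 to 0.36 for mt-Tm, -0.13 to 0.92 for mt-Ta, -0.0178 to 0.86 for mt-Tp, -0.0125 to 0.22 for Uqcrq and -0.0457 to 0.16 for Gas5. Among the other named tRNAs, which kept their direction, mt-Tt ran from 0.03 to 1.66 and mt-Ty from -0.55 to -0.11. For the share on all mitochondrial genes the difference stayed between 1.89 and 3.46 percentage points, and for the mRNA median between 0.25 and 0.53.

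Same-numbered libraries deviated together with correlations of 0.163, 0.185 and -0.0763, where all Ctrl to DTR correlations ran from -0.296 to 0.185. Of the 6 libraries, 4 correlated best with their own number. These values do not settle whether the numbers pair the samples, and the labels do not say so. The main fit did not pair them. With the replicate number as a block the count of calls was 0, the mRNA median 0.35, the rRNA median 0.33 and the tRNA median 0.33, and no call changed.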
